A study of Mus musculus with 6 samples.

Results

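The genes described here are the ErbB receptors Egfr, Erbb2 and Erbb3 and the EGF family ligands Hbegf, Ereg, Areg, Btc, Tgfa, Epgn and Nrg1 in cultured mouse prostate stroma. They were taken by name, and all 10 are among the 24341 gene symbols measured, with 11 of 34535 transcript models, since Egfr alone has more than 1. The series holds 6 RNA-seq libraries of primary stromal cells from prostates of C57BL/6 mice aged 8 to 12 weeks: 3 of cells infected with the FU-CGW lentiviral vector (Vec) and 3 of cells infected with that vector carrying the S37A form of β-catenin (S37A). Cells of all 6 libraries grew on collagen in medium with serum, insulin and 1e-10 M dihydrotestosterone, and were used within 3 weeks of dissociation. The S37A form has alanine at a serine whose phosphorylation targets β-catenin for degradation, so the comparison asks which transcripts of the family differ when a stable β-catenin is added. The protocol names UGSM cells as well as dissociated prostate cells as infected, and the labels give the cells of these libraries as prostate stroma. The share of infected cells is not stated, nor whether replicates are different animals or cultures. If they are not, the p-values reflect technical spread between libraries.

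ErbB receptors are cell-surface tyrosine kinases that pair on binding a ligand and signal through the Ras–ERK and PI3-kinase–Akt routes. Most EGF family ligands are made as membrane-anchored precursors and are released by metalloproteinases, chiefly ADAM17 and ADAM10. In the prostate, stromal ligands can act on neighbouring epithelium and on the stroma itself. Hbegf, Ereg, Areg, Btc, Tgfa and Epgn encode ligands of the EGF receptor, Nrg1 encodes a neuregulin that binds ErbB3 and ErbB4, and ErbB2 has no known ligand and serves as a pairing partner.

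The EGF-like domain defines the ligand family, so its presence in the 7 ligands follows from their choice and is given as a description. In the GENCODE coding sequences paired with the authors' RefSeq models, each ligand held exactly 1 stretch with the 6 cysteine codons of the EGF-like domain in the spacing 7, 4 or 5, 10 to 13, 1 and 8 codons, and the 3 receptors held none. Over all genes of the files with such a pairing, 37 of 20484 (0.181%) held that spacing. The stretch is 108 bases long in 6 ligands and 120 bases in Nrg1. It is the receptor-binding part of the ligand and is shown 5′ to 3′ for 6 ligands, with the cysteine codons in capitals. The stretches cover coding bases 181 to 288 of Ereg, 415 to 522 of Areg, 205 to 312 of Btc, 136 to 243 of Tgfa, 175 to 282 of Epgn and 709 to 828 of Nrg1.
Ereg: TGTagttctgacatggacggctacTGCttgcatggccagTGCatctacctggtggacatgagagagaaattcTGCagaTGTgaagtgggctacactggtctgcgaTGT
Areg: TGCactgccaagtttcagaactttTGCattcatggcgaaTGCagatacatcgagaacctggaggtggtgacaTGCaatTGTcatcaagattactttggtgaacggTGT
Btc: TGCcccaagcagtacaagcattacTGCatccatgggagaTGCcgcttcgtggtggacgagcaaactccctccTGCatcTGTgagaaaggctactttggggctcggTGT
Tgfa: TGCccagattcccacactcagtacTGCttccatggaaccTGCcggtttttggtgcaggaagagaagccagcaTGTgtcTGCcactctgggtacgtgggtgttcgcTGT
Epgn: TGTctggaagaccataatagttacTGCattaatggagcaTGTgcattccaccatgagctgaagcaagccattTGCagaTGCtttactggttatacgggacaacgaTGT
Nrg1: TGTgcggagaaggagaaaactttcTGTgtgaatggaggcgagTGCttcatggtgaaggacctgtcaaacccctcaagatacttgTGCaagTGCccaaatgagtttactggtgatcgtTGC

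Egfr is the member whose transcript structure matters for its values, because its models end differently. The long model NM_207655 has 28 exons and encodes the receptor with its membrane anchor and kinase. The short model NM_007912 has 16 exons, shares the first 1925 coding bases (53.0% of the long coding sequence) and then runs on past the shared end of exon 16 into sequence that the long model removes as an intron. In mm10 the shared part of exon 16 is chr11:16887141-16887185 on the plus strand, the authors' short model goes on to 16887658, and the next exon of the long model starts at 16889913. The sequences from the start of exon 16 are set side by side, with the coding bases that are particular to each model in capitals; those of the short model end in its stop codon.
Egfr short model: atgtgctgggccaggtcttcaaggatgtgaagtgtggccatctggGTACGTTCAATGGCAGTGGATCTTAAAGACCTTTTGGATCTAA
Egfr long model: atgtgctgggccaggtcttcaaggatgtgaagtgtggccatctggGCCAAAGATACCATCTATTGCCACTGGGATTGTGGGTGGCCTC

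Expression was deposited as FPKM (fragments scaled to the length of the transcript model and to the size of the library) and was summed by gene symbol. The confidence intervals in the tables correspond to about 38.7 to 48.6 M fragments per library. Ctnnb1, the gene introduced, stood at 99.1 to 116 FPKM in Vec and 132 to 146 FPKM in S37A, with introduced and own transcripts not separated, and the Wnt target Axin2 at 0.0921 to 0.169 and 2.74 to 3.29 FPKM. All 9 stromal markers were present, with sums of 7347 to 7821 FPKM in Vec and 8489 to 8750 FPKM in S37A. The fit described below called 3 of them higher (Acta2, Des and Thy1) and 1 lower (Pdgfra). Over all genes it called 6.06% higher and 19.9% lower. Of 12 markers of macrophages and other blood cells, 11 were higher in every S37A library than in any Vec library, against 11.3% of all tested genes. In the fit described below 9 of the 12 were tested and 7 called higher, against 6.06% of all genes. The 12 summed to 23.2 to 29.0 FPKM in Vec and 59.6 to 67.1 FPKM in S37A. None of the 12 was at 0 in all libraries. The 10 epithelial markers summed to 17.95 to 23.9 FPKM in Vec and 16.1 to 25.6 FPKM in S37A, with Pbsn, a secretory gene of luminal cells, below 0.1 FPKM in every library. The 7 endothelial markers summed to 27.9 to 31.1 and 27.3 to 28.7 FPKM, and the 8 glial markers to 5.90 to 7.35 and 6.22 to 7.30 FPKM. The part of these other cells in the results was not tested. In bulk RNA a different number of cells of a type and a different amount of RNA per cell cannot be told apart.

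In Vec cells Egfr was the most abundant member, at 73.4 ± 2.74 FPKM (SD, n = 3 here and below), followed by Hbegf at 40.4 ± 4.44 and Ereg at 20.2 ± 1.66 FPKM. Nrg1 (6.02 ± 0.709 FPKM) and Erbb2 (4.92 ± 0.259 FPKM) came next; their libraries did not overlap in Vec but did in S37A. Btc (1.71 ± 0.197 FPKM) and Areg (1.49 ± 0.264 FPKM) overlapped in both groups, as did Erbb3 (0.242 ± 0.0658 FPKM) and Tgfa (0.225 ± 0.0571 FPKM). Epgn was the lowest, at 0.175 ± 0.0661 FPKM, overlapping Erbb3 and Tgfa in Vec and below both in S37A. The S37A libraries had the same order from Egfr to Ereg.

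**Figure D1:**
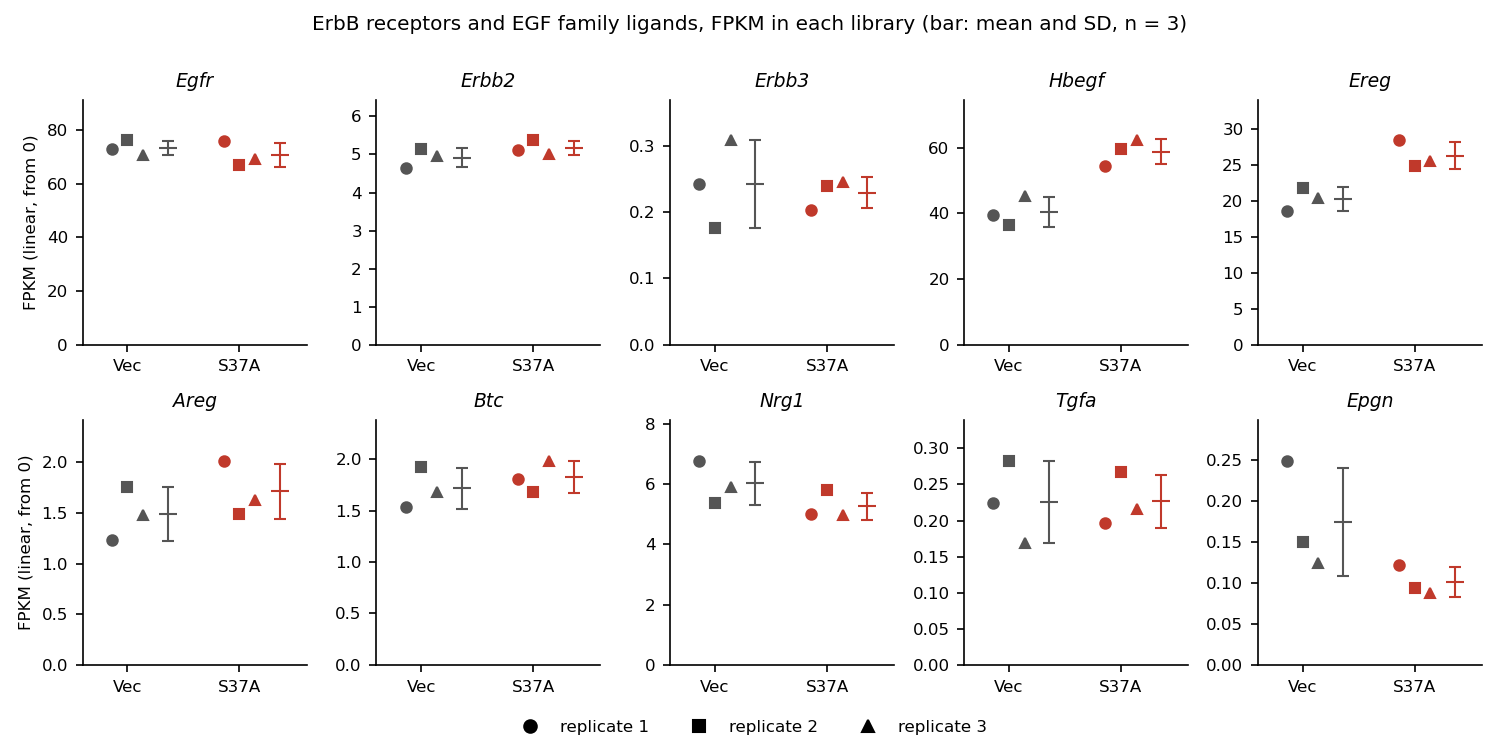
FPKM of the 3 receptors and 7 ligands in each library (vertical axes, linear from 0, a scale of its own for each gene); grey points are Vec libraries, red points S37A libraries, marker shapes give the replicate number, and bars are the mean and SD of 3 libraries. Hbegf (36.6 to 45.3 against 54.6 to 62.3 FPKM) and Ereg (18.5 to 21.8 against 24.8 to 28.4 FPKM) are separated, with S37A above. Epgn, below the filter for the test, is narrowly separated with S37A below (0.124 to 0.249 against 0.0872 to 0.122 FPKM). Egfr, Erbb2, Erbb3, Areg, Btc, Tgfa and Nrg1 overlap.

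With S37A β-catenin, 2 ligands of the EGF receptor rose, Hbegf and Ereg, and neither receptor abundant enough for the test passed it. Of the 10 members, 7 averaged 0.5 FPKM or more across all 6 libraries and were tested with limma on log2(FPKM + 1), with Benjamini-Hochberg adjustment over all 12022 genes tested and a threshold of 0.05. Of these, 2 were called higher, 0 lower and 5 not called, and at an unadjusted p under 0.05 the limma counts were also 2 and 0. Across all genes 6.06% were called higher and 19.9% lower. The median log2 difference was 0.06 for the 7 tested members and -0.07 for all genes. The groups did not overlap, with S37A above Vec, for 2 of 7, against 11.3% of all genes, and with S37A below Vec for 0 of 7, against 36.5%. The split of all genes depended on the scaling of the libraries: 729 were higher and 2393 lower with FPKM as deposited, and 1265 and 945 with median-ratio scaling.

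Hbegf encodes heparin-binding EGF-like growth factor, a membrane-anchored ligand that is shed from the cell surface. It lies on chromosome 18 from 36504927 to 36515805 (mm10, minus strand, protein-coding). Its level was 39.4, 36.6 and 45.3 FPKM in Vec libraries 1 to 3 and 54.6, 59.7 and 62.3 FPKM in S37A libraries 1 to 3. Every S37A library was above every Vec library, and the authors' intervals of the highest Vec library (44.0 to 46.6 FPKM) and the lowest S37A library (53.1 to 56.0 FPKM) did not overlap. The mean rose 1.46-fold, from 40.4 ± 4.44 to 58.9 ± 3.93 FPKM, a log2 difference of 0.53 (SE 0.08, limma adjusted p = 0.00838). By exact permutation of the group labels the two-sided p was 0.1, and with 3 libraries in each group no smaller p is possible. The call held in all 15 alternatives run, which include each other scaling and each library left out (adjusted p = 0.00499 to 0.0381). The inferred number of fragments was 4205 to 6082 per library, so counting error was small beside the spread between libraries.

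Ereg encodes epiregulin, a ligand of the EGF receptor that also binds ErbB4. It lies on chromosome 5 from 91074622 to 91093646 (plus strand, protein-coding). Ereg stood at 18.5, 21.8 and 20.3 FPKM in Vec libraries 1 to 3 and at 28.4, 24.8 and 25.6 FPKM in S37A libraries 1 to 3, again without overlap. The mean rose 1.30-fold, from 20.2 ± 1.66 to 26.2 ± 1.89 FPKM (log2 difference 0.36, SE 0.07, limma adjusted p = 0.0148, permutation p = 0.1). The call held in 14 of 15 alternatives and was lost with the replicate number as a block (adjusted p = 0.0502; 0.0102 to 0.0502 over the 15). Within each group Hbegf and Ereg did not follow each other: Vec library 2 and S37A library 1 had the highest Ereg and the lowest Hbegf of their groups. Macrophage and other blood cell markers moved with both ligands between groups, from 23.2 to 29.0 FPKM summed in Vec to 59.6 to 67.1 FPKM in S37A, and their part in the 2 rises was not tested.

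Ereg has 3 other ligands of the family as neighbours. Epgn, Ereg, Areg and Btc lie within 376 kb on chromosome 5 (91027464 to 91402994), a span in which the files hold 5 genes, the fifth being the predicted gene Gm19619. Areg, encoding amphiregulin, is on the plus strand at 91139599 to 91148432. It stood at 1.23, 1.76 and 1.48 FPKM in Vec and at 2.02, 1.495 and 1.63 FPKM in S37A, with overlapping groups. Its log2 difference was 0.12, with a 95% interval of -0.11 to 0.36 (limma adjusted p = 0.368). Btc, encoding betacellulin, is on the minus strand at 91357261 to 91402994. It stood at 1.53, 1.92 and 1.68 FPKM in Vec and at 1.81, 1.68 and 1.98 FPKM in S37A. Its log2 difference was 0.06, with an interval of -0.11 to 0.22 (adjusted p = 0.563). The interval of Areg reaches up to 0.36, and the log2 difference of Ereg was 0.36. On log2(FPKM + 1) the change of a low gene such as Areg is understated, so these 2 values do not stand for like fold changes. With a pseudocount of 0.1 the log2 differences were 0.19 for Areg and 0.38 for Ereg. Whether the neighbours differ in response was not tested. Areg rests on 59.9 to 97.1 inferred fragments per library and Btc on 185 to 268, against 3712 to 5436 for Ereg.

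Epgn, encoding epigen, is the fourth gene of this cluster and lies at 91027464 to 91035215 on the plus strand. It was below the filter and was not tested. Its values were 0.249, 0.150 and 0.124 FPKM in Vec and 0.122, 0.0941 and 0.0872 FPKM in S37A, so that the groups just failed to overlap, with S37A below. These values rest on 6.00 to 18.9 inferred fragments per library, and the authors' interval of Vec library 3 (0.0414 to 0.207 FPKM) contains all 3 S37A values. With no filter, the log2 difference of Epgn was -0.09 (limma adjusted p = 0.183).

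Nrg1, the neuregulin gene on chromosome 8 (31814551 to 32884029, minus strand), was the third most abundant ligand. Its level was 6.78, 5.37 and 5.91 FPKM in Vec and 5.02, 5.79 and 4.97 FPKM in S37A. The groups overlapped through S37A library 2, which was above Vec library 2. The log2 difference was -0.16, with a 95% interval of -0.36 to 0.03 (limma adjusted p = 0.178), and it was below 0 in all 15 alternatives without passing in any. The files hold 1 transcript model of Nrg1, NM_178591, of 2103 bases and placed in the 3′ part of the annotated gene (31818028 to 31918203), so other forms of neuregulin were not measured separately. Tgfa, encoding transforming growth factor α, on chromosome 6 (86195223 to 86275719, plus strand), was below the filter, at 0.224, 0.283 and 0.169 FPKM in Vec and 0.197, 0.268 and 0.216 FPKM in S37A. The S37A libraries all lay within the range of the Vec libraries.

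**Figure D2:**
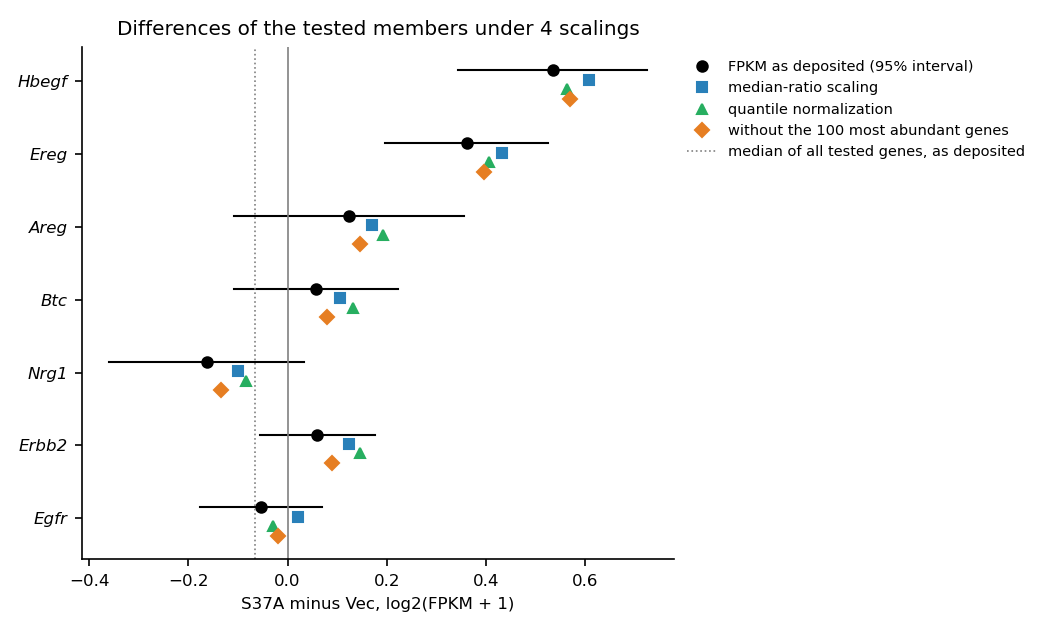
Log2 difference, S37A minus Vec, of the 7 tested members (horizontal axis, log2(FPKM + 1)); black points with lines are the values with FPKM as deposited and their 95% intervals from limma, and coloured points are 3 other scalings. The intervals of Hbegf and Ereg lie above 0, as do their points under the other scalings, the other 5 intervals include 0, and Egfr moves from -0.05 to 0.02 with median-ratio scaling.

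Among the receptors, Egfr (chromosome 11, 16752203 to 16918158, plus strand) was high in both groups. Its summed level was 73.2, 76.2 and 70.8 FPKM in Vec and 75.9, 67.1 and 69.3 FPKM in S37A, with overlap. The log2 difference was -0.05, with a 95% interval of -0.18 to 0.07 (limma adjusted p = 0.466), and its sign turned with median-ratio scaling (0.02) and when only the long model was used (0.08). A change of the summed receptor transcript was not detected, and the interval allows a fall of 0.18 or a rise of 0.07 on that log2 scale.

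The 2 models of Egfr set out above lay apart in opposite directions. The long model stood at 48.6, 47.8 and 47.9 FPKM in Vec and at 53.2, 49.3 and 50.7 FPKM in S37A. The short model stood at 24.6, 28.4 and 22.8 FPKM in Vec and at 22.7, 17.9 and 18.5 FPKM in S37A. For each of the models the library values of the groups did not overlap, but the authors' intervals did. For the long model they were 46.4 to 50.8 FPKM in Vec library 1 and 47.0 to 51.5 FPKM in S37A library 2, and for the short model 21.4 to 24.3 FPKM in Vec library 3 and 21.2 to 24.1 FPKM in S37A library 1. Such separation was common among transcript models: in 10.2% every S37A library was above every Vec library, and in 29.1% below. The short model made up 34.4 ± 2.59% of the Egfr sum in Vec and 27.7 ± 1.85% in S37A, and the long model was 1.68 to 2.10 times the short one in Vec and 2.35 to 2.76 times in S37A. Fitted over all 14550 transcript models with a mean of at least 0.5 FPKM, neither model passed, while 2.62% of models were called higher and 5.29% lower. The log2 difference was 0.08 for the long one (limma adjusted p = 0.166) and -0.35 for the short one (limma adjusted p = 0.111).

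The log2 ratio of long to short, taken after adding 1 FPKM to each model, differed by 0.43 between the groups, with a 95% interval of 0.07 to 0.79. The interval included 0 with the replicate block (-0.06 to 0.93) and without Vec library 1, Vec library 2, S37A library 2 or S37A library 3. In a fit of that ratio over the 2057 genes with 2 such models, 0.292% of genes were called, and Egfr was not (limma unadjusted p = 0.0267, adjusted p = 0.413; 0.366 to 0.672 with the block or without 1 library). Reads of the shared first 16 exons are divided between the models by the authors' software, and the bases that only the short model has lie in an intron of the long one. Reads of unspliced Egfr RNA from there and reads of the short transcript cannot be told apart.

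**Figure D3:**
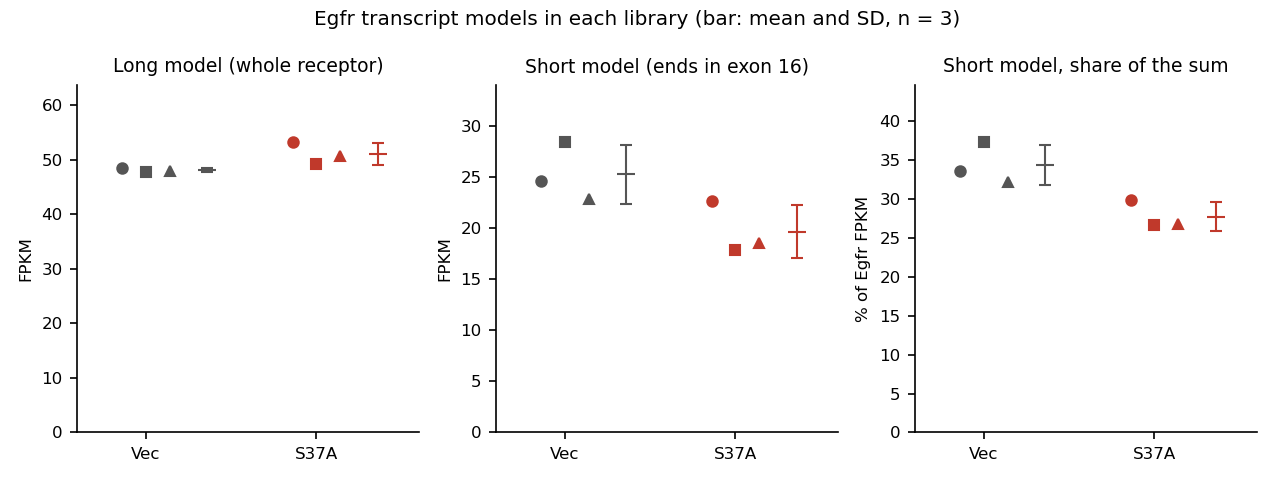
FPKM of the long and the short Egfr transcript model and the percentage of their sum taken by the short one (vertical axes, linear from 0) in each library; points are libraries, with circle, square and triangle for replicates 1, 2 and 3, and bars are the mean and SD of 3 libraries. The short model takes 32.3 to 37.3% in Vec and 26.6 to 29.9% in S37A.

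Erbb2 (chromosome 11, 98412470 to 98437716, plus strand) encodes the receptor that pairs with the other ErbB proteins. It stood at 4.64, 5.15 and 4.97 FPKM in Vec and at 5.11, 5.37 and 5.02 FPKM in S37A, with overlap. The log2 difference was 0.06, with a 95% interval of -0.06 to 0.18 (limma adjusted p = 0.385). Erbb3 (chromosome 10, 128567523 to 128589652, minus strand) encodes a neuregulin receptor with a weak kinase. It was near the lower end of detection, at 0.241, 0.176 and 0.308 FPKM in Vec and 0.202, 0.239 and 0.245 FPKM in S37A, and was below the filter. Its 34.7 to 56.1 inferred fragments per library give intervals that overlap between all libraries. Of the 5 genes of the family outside the 10, Erbb4 (0.00578 to 0.0737 FPKM), Egf (0.116 to 0.207 FPKM) and Nrg2 (0.0233 to 0.0864 FPKM) were low in all libraries. Nrg3 was listed at 0.0164 to 0.0248 FPKM in Vec and at 0 in S37A, and Nrg4 at 0 in all 6. None of the 5 reached the filter.

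Genes that release, damp or carry the ErbB signal were read from 4 lists. Of 10 genes that promote or block release of the ligands, 2 were higher, 2 lower and 6 not called. Over all genes 6.06% were called higher and 19.9% lower. The 2 higher ones were a sheddase gene, Adam12, and the inhibitor gene Timp3. The median log2 difference of the 10 was -0.04, against -0.07 for all genes. Timp3, the inhibitor of ADAM17 and other metalloproteinases, went from 162, 160 and 166 FPKM in Vec to 345, 316 and 314 FPKM in S37A, a 2.00-fold rise (log2 difference 0.99, SE 0.04, limma adjusted p = 7.58e-05). Rhbdf2, encoding iRhom2, which brings ADAM17 to the cell surface, fell from 4.96 ± 0.230 to 3.80 ± 0.172 FPKM (adjusted p = 0.00958). Both calls held in every alternative run. Adam17 itself fell from 11.2 ± 0.322 to 9.88 ± 0.130 FPKM (adjusted p = 0.0209) and Adam12, another sheddase, rose from 18.4 ± 0.775 to 20.5 ± 0.197 FPKM (adjusted p = 0.0324). These 2 calls were less firm: that of Adam17 held in 8 of 15 alternatives and was lost with median-ratio scaling (adjusted p = 0.0975) and quantile normalization (0.0906), and that of Adam12 held in 9 of 15. Adam10 was at 33.8, 33.0 and 31.0 FPKM in Vec and 32.6, 31.3 and 31.5 FPKM in S37A, and was not called (adjusted p = 0.564).

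Of 15 tested inhibitors and degradation factors of the receptors, 0 were called higher, 3 lower and 12 were not called, against 6.06% higher and 19.9% lower over all genes. At an unadjusted limma p under 0.05 the counts of the 15 were 1 higher and 6 lower. Their median log2 difference was -0.08, against -0.07 for all genes. The 3 were Lrig1, a transmembrane inhibitor of ErbB receptors (11.8 ± 0.199 to 10.3 ± 0.666 FPKM, limma adjusted p = 0.0396), Socs4 (6.40 ± 0.863 to 5.03 ± 0.293 FPKM, adjusted p = 0.0427) and the phosphatase gene Ptprj (5.79 ± 0.574 to 4.70 ± 0.261 FPKM, adjusted p = 0.0389). None of these 3 was called under median-ratio scaling, quantile normalization or without the 100 most abundant genes, and each was called in 4 of 15 alternatives. With only its highest transcript model, the log2 difference of Ptprj was -0.01 (adjusted p = 0.929), against -0.25 for the sum. Errfi1, a feedback inhibitor of the EGF receptor, stood at 68.0, 58.5 and 71.0 FPKM in Vec and 75.7, 83.8 and 73.7 FPKM in S37A. Its groups did not overlap and it was not called as deposited (log2 difference 0.24, adjusted p = 0.0605), but it was with median-ratio scaling (0.0380) and without the 100 most abundant genes (0.0472).

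Of 25 adaptors and kinases downstream, 2 were higher, 5 lower and 18 not called, with a median log2 difference of -0.05. The shares over all genes were 6.06% higher and 19.9% lower. Ptpn11, encoding the phosphatase SHP2, rose from 45.9 ± 1.06 to 49.8 ± 0.588 FPKM (limma adjusted p = 0.0378), a call that held in 7 of 15 alternatives. The Ras exchange factor gene Sos1 fell from 5.93 ± 0.204 to 4.87 ± 0.0327 FPKM (adjusted p = 0.0112), Plcg1, encoding phospholipase Cγ1, from 11.8 ± 0.708 to 9.18 ± 0.613 FPKM (0.0119), and Mapk3, encoding ERK1, from 68.3 ± 3.10 to 59.1 ± 0.518 FPKM (0.0141). The calls of Sos1 and Plcg1 held in all 15 alternatives, and that of Mapk3 was lost without S37A replicate 3 (0.0569). With median-ratio scaling 5 of the 25 were higher and 3 lower, and over all genes more were then called higher than lower as well.

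Of 21 transcripts that ERK signalling induces in many cells, 1 was higher, 4 lower and 16 not called, with a median log2 difference of -0.05. Among all genes 6.06% were called higher and 19.9% lower. Of the immediate-early genes, Ier2 and Egr1 fell, and Fos, Fosl1, Junb, Ier3 and Egr2 were not called. Egr2 stood at 21.5, 19.7 and 22.9 FPKM in Vec and at 23.2, 26.2 and 23.8 FPKM in S37A, every S37A library above every Vec library (limma adjusted p = 0.0750), and it was called higher under the 3 other scalings. Ier2 went from 61.0, 58.4 and 66.7 FPKM in Vec to 37.0, 40.0 and 35.3 FPKM in S37A (log2 difference -0.71, SE 0.06, limma adjusted p = 0.00178). Egr1 went from 106, 96.4 and 110 FPKM to 77.4, 80.3 and 69.8 FPKM (log2 difference -0.45, SE 0.07, adjusted p = 0.00770). Spry2, a feedback inhibitor of receptor tyrosine kinase signalling, fell from 28.6 ± 0.261 to 24.0 ± 0.545 FPKM (0.00626), and Myc from 51.1 ± 3.37 to 41.1 ± 0.358 FPKM (0.00961). These 4 falls held in all 15 alternatives. Dusp5, a phosphatase of ERK, was the 1 that rose (27.7 ± 1.51 to 31.7 ± 1.34 FPKM, adjusted p = 0.0345). Its call held in 9 of 15 alternatives (adjusted p = 0.0119 to 0.114) and was lost with no filter, with the highest transcript model, and without Vec library 1, Vec library 2, S37A library 2 or S37A library 3. Dusp6, another ERK phosphatase, stood at 26.1 ± 0.462 and 24.97 ± 0.590 FPKM and was not called (0.218). With median-ratio scaling 5 of the 21 were higher and 4 lower. The balance of this list, like that of all genes, depends on the scaling while its 4 falls do not.

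**Figure D4:**
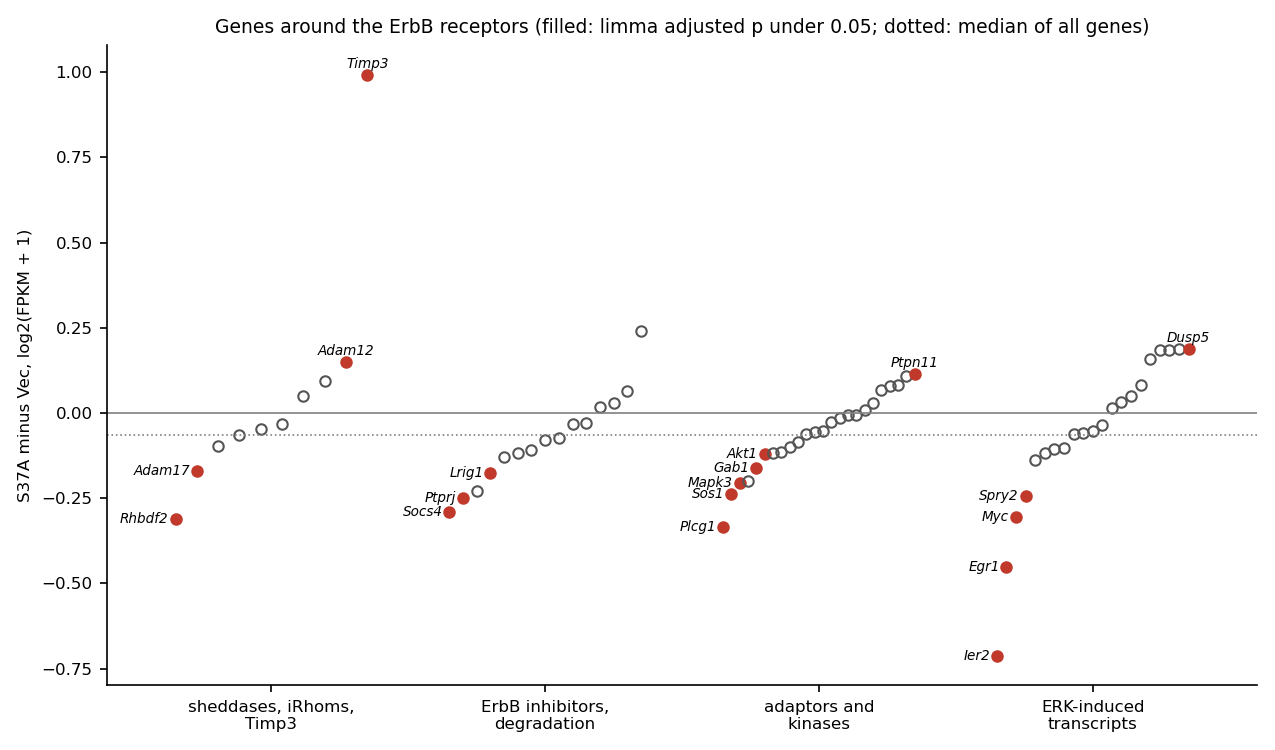
Log2 difference, S37A minus Vec (vertical axis, log2(FPKM + 1)), of the tested genes of the 4 lists but 1 of the adaptors and kinases, ordered by size within a list; each point is a gene, filled red points have a limma adjusted p under 0.05, and the dotted line is the median of all genes (-0.07). Timp3 lies at 0.99 and Ier2 at -0.71, and most other points lie near the median of all genes.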

How the data were processed

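Per the labels' protocols, stromal cells that attached within 30 min of replating were kept, and a SMART-Seq v4 kit, primed both at random and with poly-dT, gave the cDNA for Illumina libraries. That kit does not mark strand. The tools were bcl2fastq 1.8.3, TopHat and Cufflinks on mm10, per the submitters' processing notes; roles and further versions are not given in the sources used here. Per the file headers, the authors' deposited tables give FPKM with confidence bounds for each RefSeq transcript model in each library, its length and a coverage signal, which was not used.

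FPKM of models with 1 symbol were summed, and 5 genes with a failed status were left out. Fragments per model were inferred from interval widths as the squared ratio of FPKM to its standard error, which takes the width as counting error only. Where the authors' intervals hold more than counting error, the inferred numbers are too low. The spread between libraries is not covered. Read counts were not recovered and no count model was run. Log2(FPKM + 1) of 12022 genes was fitted with limma 3.58.1 in R 4.3.3, with a trend by intensity, 3 Vec against 3 S37A libraries, without a block, and the script was tested on simulated data. Differences on this scale understate changes of low genes. Alternatives were a pseudocount of 0.1, no filter, a mean of at least 5 FPKM, 3 scalings, the replicate block, no trend, the highest transcript model and each library left out; the fits of transcript models and their ratio were chosen after seeing the data. Positions and sequences are from GENCODE M21 on mm10.

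The members and lists were chosen with earlier results of these data known. All 10 members are named; of each list, the 4 genes with the smallest p are named, except 1 that is not reported here, and Adam10, Dusp5, Dusp6, Ptpn11, Egr2, Fos, Fosl1, Junb and Ier3 were chosen after their values were seen.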

Additional observations from a re-analysis of the deposited data

How the results depend on the processing

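Both rises among the members, Hbegf and Ereg, kept their direction in all 15 alternatives, and 0 members were called lower in any. With the replicate block 1 member was called higher, since Ereg was lost, and 442 genes were called higher and 1193 lower over all genes, with 3 and 8 of the pathway genes. The calls lost there were those of Adam12, Ptpn11, Adam17 (adjusted p = 0.0567), Lrig1, Ptprj, Socs4, Akt1 and Gab1. Same-numbered libraries deviated from their group means with correlations of -0.12, 0.02 and 0.10, and only replicate 3 correlated best with its own number, so the numbers were not taken as pairs. Egfr, not called in any, reversed in sign with median-ratio scaling (0.0210) and with the highest transcript model (0.0838). Over all genes, 1265 were higher and 945 lower with median-ratio scaling, 1094 and 957 with quantile normalization. Dropping the 100 most abundant genes gave 900 and 1500, and 1491 were lower with the highest transcript model. Leaving out 1 library gave 298 to 747 higher and 606 to 2401 lower; each library but Vec 1 moved the lower count by over 1.5 times. As deposited, 5 of the 71 tested pathway genes were higher and 14 lower, against 6.06% and 19.9% of all genes. The pathway counts were 14 and 8 with median-ratio scaling and 9 and 8 with quantile normalization. They were 11 and 9 when the 100 most abundant genes were dropped, and 2 to 5 and 8 to 12 without 1 library. The causes were not tested. Count models were not run, as whole reads were not recovered. Depth limits Epgn, Erbb3 and Tgfa, at 6.00 to 58.9 inferred fragments per library.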
